A study of Mus musculus with 12 samples.

Results

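The untreated normoxia group consists of CD31-positive cells that were grown out of a mouse embryonic stem cell line at 21% oxygen with no inhibitor. They are 3 of the 12 arrays of the series, called normoxia 1, 2 and 3 below. Of the 25697 probes on the array, 12191 had a detection p-value under 0.05 on all 3 of these arrays, and these probes, for 8351 of 16593 genes, are the members. A detection p-value is the share of negative control probes that were brighter than the probe on the same array. The starting line was CCE, a wild-type male embryonic stem cell line of strain 129/Sv, so all groups derive from 1 cell line and genotype. Embryoid bodies, which are floating aggregates of differentiating stem cells, were grown for 4 days. Cells bearing Flk1, the VEGF receptor encoded by Kdr, were sorted from them and grown on collagen IV for 4 days more. RNA came from a final sort for CD31, a junction protein that is the product of Pecam1. The rest of the series comprises 3 arrays of each of 3 further groups: normoxia with 4 µmol/l L-685.458 (a gamma-secretase inhibitor, which blocks the cleavage that activates Notch receptors), hypoxia at 1.5 to 2% oxygen without the inhibitor, and hypoxia with it. The series record calls the 3 replicates biological.

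Endothelial cells line blood vessels. They hold together through junction proteins such as VE-cadherin, read growth factors of the VEGF, angiopoietin and Notch families, and keep their identity through transcription factors of the ETS, GATA and SoxF families. In the embryo they arise from Flk1-positive mesoderm that also gives rise to blood and to smooth muscle, and undifferentiated stem cells use a separate set of regulators around Pou5f1 and Nanog. CD31 is not limited to endothelium, since platelets, some leukocytes and mouse embryonic stem cells carry it too.

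The untreated normoxia arrays detected 13513, 13723 and 13205 probes, with an average of 13480 ± 261 (SD, n = 3), against 13423 ± 252 (SD, n = 9) on the other arrays. The difference of 57.3 probes was smaller than the spread between arrays (two-sided exact permutation test over 220 arrangements, p = 0.745, where the smallest possible p is 0.00455). The mean deposited intensity was 619, 605 and 522, so normoxia 3 was the dimmest of the 3. Normoxia 3 also stood apart in pattern. After normalization, no member differed by more than 2-fold between normoxia 1 and 2 and the SD of their log2 difference was 0.192, whereas 325 differed between normoxia 1 and 3 (SD 0.405) and 334 between normoxia 2 and 3 (SD 0.406). Replicate 3 was likewise the distant one in the other groups, where the SD was 0.217 to 0.225 between replicates 1 and 2 and 0.348 to 0.484 against replicate 3. The labels do not say what sets replicate 3 apart, so values are given for each array, and the comparison with the rest of the series is given with and without replicate 3.

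Detection covered nearly the same probes in every group, as 11340 of the 12191 members were detected on all 12 arrays. That is 93.0% of the members, and the members make up 47.4% of all probes. A further 1180 probes were detected on 2 of the normoxia arrays, 1508 on 1 and 10818 on none. By gene, the share with a probe detected on all 3 normoxia arrays was 50.3%. Families that serve other tissues were mostly dark. Of 1058 olfactory receptor genes, which are used by sensory neurons of the nose, 17 were detected (1.61%), as were 2 of 138 vomeronasal receptor genes, 0 of 32 bitter taste receptor genes and 0 of 41 beta-defensin genes. Of 72 cytosolic ribosomal protein genes, 61 were detected (84.7%). Absence of detection is weaker evidence than detection, because 1107 of the 4777 genes with several probes had 1 probe detected on all 3 arrays and another detected on none.

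The brightest probes of the cells were those of the protein synthesis machinery, the cytoskeleton, energy metabolism and a fetal growth factor. Ribosomal protein genes supplied 14 of the 25 genes with the brightest probes, led by Rplp1, a protein of the ribosomal stalk, with intensities of 70122, 69356 and 66515 on normoxia 1, 2 and 3. Outside that family the list was led by Igf2, the insulin-like growth factor of fetal tissues, with 68131, 67903 and 59820.2. The 3 arrays were alike for both genes, as they were for Hspa8, the constitutive cytosolic chaperone (66445, 64462 and 52370.3). The highest intensities of any probe were 70767, 69357 and 66515 on normoxia 1, 2 and 3, so these probes lie near the top of the range. Whether such signals, among them the brightest Acta2 probe, had reached the limit of the scale was not tested. Their order and small differences are therefore uncertain. Cytoskeletal genes followed. Actb, encoding beta-actin, had 56384, 56602 and 46423, and Tuba1b, an alpha-tubulin, had 55531, 52321 and 41270.4. The lower raw values on normoxia 3 were no longer low after normalization: the normalized log2 signal on normoxia 3 lay 0.07 above the mean of normoxia 1 and 2 for Actb and 0.07 below it for Tuba1b.

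Metabolic genes among the 25 brightest outside the ribosomal proteins included Atp5b and Atp5g3, subunits of the mitochondrial ATP synthase, Gapdh of glycolysis, Nme1 and Nme2, which are nucleoside diphosphate kinases, Gpx1, a glutathione peroxidase, and Fth1, the heavy chain of ferritin. Gapdh had intensities of 34050.2, 34366 and 28240.3 and Fth1 had 32441, 30894 and 23645, close to each other across arrays. Genes of the cell surface and matrix response were there as well. F2r, the thrombin receptor PAR1 that endothelial cells use to sense clotting, had 30404, 27832 and 24735, Cd81, a tetraspanin, had 30215, 28484 and 22409.9, and Ccn2, a matricellular growth factor induced by stretch and TGF-beta, had 25686, 24025 and 28978. Anxa2, an annexin that promotes plasmin formation at the endothelial surface, had 37431, 35531 and 35417. The rest were Tubb5, Ubb-ps, Tmsb10, Mtch1, H2ac24, Eif4a1, Eef1g, Npm1 and Hnrnpab, and Acta2, which is described with the smooth muscle genes. Across these 25 genes the SD of the log2 signal over the 3 arrays was at most 0.29. The normalization gives probes of equal rank the same value on every array, so this small spread is partly set in advance. The brightness of 2 different probes does not rank their transcripts, because probes bind with different strength, and probes of near-identical families such as actins, tubulins, histones and ribosomal proteins can read more than 1 gene. Of the 50 brightest probes, 11 carry no gene symbol in the annotation and are not named here. The 50 brightest probes held 15.0%, 15.1% and 14.3% of the summed positive intensity of normoxia 1, 2 and 3.

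Genes of endothelium were detected nearly throughout. The lists used here hold 246 genes, of which 229 have a named probe, and 142 of those were detected on all 3 normoxia arrays, 30 on 1 or 2 and 57 on none; the other 17 were not analysed here. Among surface and junction genes of endothelium 17 of 20 were detected on all 3 arrays, among receptors and ligands 20 of 24, and among transcription factors 20 of 22, beside 50.3% of all genes.

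The 3 markers used to check the label were all bright. Pecam1, encoding the CD31 of the second sort, had intensities of 4037, 4376 and 5378 by its brighter probe and 1559.8, 1478 and 1853 by the other. Cdh5, encoding VE-cadherin, had 1442, 1523 and 1689, and Ramp2, the partner protein that makes the calcitonin-receptor-like receptor respond to adrenomedullin, had 8415, 8149 and 11241. Each was highest on normoxia 3, and the lowest intensities that counted as detected were 21.3, 18.9 and 16.8 on the 3 arrays. Pecam1 was used to sort the cells, so its presence is not a finding.

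Egfl7, a secreted regulator of vessel tube formation, had 23469.8, 22086 and 22421, Esam, a tight junction adhesion molecule, had 21548, 21252 and 19868, and Robo4, an endothelial guidance receptor that stabilizes vessels, had 13932, 13199.8 and 13011. These 3 genes were even across the arrays. Mmrn2, a matrix protein of endothelium, had 8435, 8386 and 9141, and Plvap, the diaphragm protein of fenestrae and caveolae, had 8082, 7206 and 7273. Emcn, the sialomucin endomucin of veins and capillaries, had 4674, 4409 and 7755, and Icam2, a constitutive adhesion molecule, had 5402, 5120.4 and 7791. Both were clearly higher on normoxia 3, by 1.96-fold for Emcn and 1.71-fold for Icam2 after normalization, with normoxia 1 and 2 alike. Vwf, the clotting factor stored in mature endothelium, had 314, 245 and 109 and was highest on normoxia 1. The selectin genes Sele and Selp, which capture leukocytes on inflamed endothelium, were each detected on 2 arrays, with 26.3, 17.4 and 22.3 and 23.8, 16.2 and 27.8, and Clec14a was detected on 1. Gja5, encoding the arterial connexin 40, had 260.3, 231 and 38.7, and Gja4, encoding connexin 37, had 1014, 1051 and 581. Both connexins were lower on normoxia 3, Gja5 by 3.95-fold. Vwf, Gja4, Gja5 and Cd34 were named after their values were seen. Cd34, a sialomucin of endothelial and blood progenitors, had 623, 693 and 988.

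Of the receptors, Flt1, the decoy VEGF receptor, had intensities of 3469, 3476 and 4453, Nrp1, a co-receptor of VEGF, had 7127, 6638 and 7331, and Tek, the angiopoietin receptor Tie2, had 1361, 1156 and 1521. The receptor of the first sort stood lower on its only probe: Kdr had 39.4, 23.9 and 29.8, a little above the lowest intensity detected. With 1 probe the level of the Kdr transcript cannot be judged further. Notch4, the Notch receptor of endothelium, had 4936, 4791 and 4081 and Notch1 had 997, 939 and 853, while the arterial Notch ligand Dll4 was detected on 2 arrays with 40.7, 28.3 and 15.6. Aplnr, the apelin receptor of venous and angiogenic endothelium, had 2533, 2387 and 1279.7, and Ednrb, the endothelin B receptor, had 2453, 2269 and 1059.9. Both were lower on normoxia 3, by 1.68-fold and 1.93-fold. Apln, the ligand of Aplnr, was detected on 1 array and Cxcr4, the chemokine receptor of tip and arterial cells, on 2. S1pr1, the receptor through which sphingosine-1-phosphate tightens junctions, was detected on none, with all 3 of its values below 0 after background subtraction. Kdr was named after its value was seen.

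Transcription factors of all the main endothelial families were present. Of the ETS family, Ets2 had 7432, 6737 and 5273 and Ets1 had 6372, 6387 and 5461, and of the SoxF family Sox18 had 5286, 4955 and 4956, Sox7 had 1419, 1456 and 1287 and Sox17 had 1105, 961 and 1879. Ets1, Sox18 and Sox7 were even across arrays, and Sox17, which acts in arterial endothelium and in endoderm, was 2.07-fold higher on normoxia 3. Lmo2, the adaptor that joins Tal1 and GATA factors in blood and endothelial precursors, had 2697, 2779 and 4354, Mef2c had 2197, 2246 and 2774, and Klf2, the flow-responsive factor, had 1312, 1269 and 1610.1. All 3 were highest on normoxia 3. Etv2, the ETS factor that is switched on briefly while mesoderm commits to blood and endothelium, went the other way with 167, 198 and 18.7, which is 4.74-fold lower on normoxia 3. Erg was detected on 2 arrays with 16.5, 34.5 and 47.5, and Hey2, an arterial Notch target, on 2 with 32.8, 26.8 and 15.9. Of 6 genes of lymphatic endothelium, 5 were detected on all 3 arrays, among them Stab1, a scavenger receptor (656, 692 and 509), Pdpn, podoplanin (1072, 1112 and 359), and Lyve1, the hyaluronan receptor (249, 242 and 81.6). Prox1, the master regulator of lymphatic fate, was just above the limit by 1 of its 2 probes (24.5, 27.7 and 23.0), and Ccl21a was not detected.

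**Figure D1:**
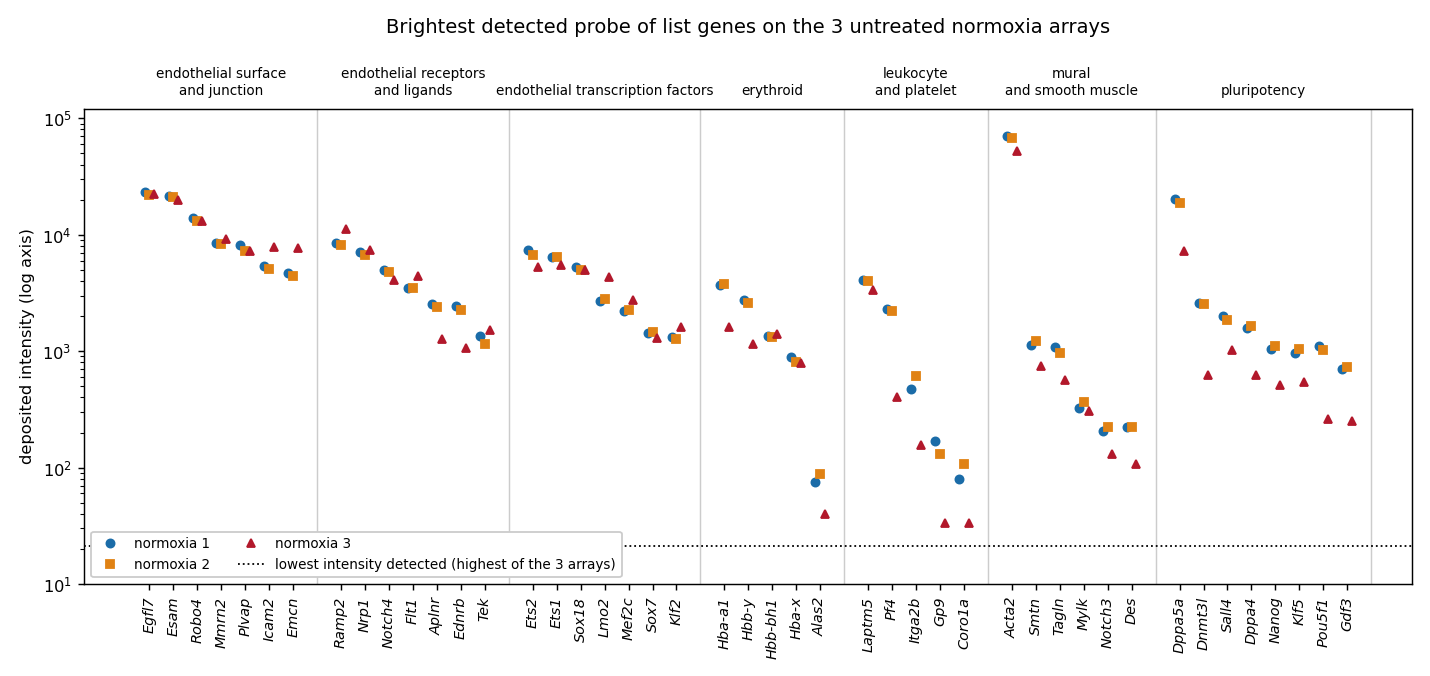
Deposited intensity (log axis) of the brightest detected probe of selected list genes on normoxia 1 (circles), normoxia 2 (squares) and normoxia 3 (triangles), by gene list, with the highest of the 3 arrays' lowest detected intensities as a dotted line. Normoxia 1 and 2 nearly coincide for most genes shown, while the triangles lie above them for Emcn and Icam2 and below them for Pf4, Pou5f1 and Dppa5a.

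Promoters were compared for a short ETS-type motif, AGGAAG, because ETS factors are the family most shared by endothelial genes. Windows of 250 bases before the transcript start came from RefSeq for build GRCm38.p6 and were searched on both strands, where the reverse match reads CTTCCT. Of the 57 endothelial genes detected on all 3 arrays in the surface, receptor and transcription factor lists, 35 have a window in that table, and 17 of these held the motif. By window this was 43.9% of 41, beside 29.5% of 32851 windows of all genes in the table. By list, 70.0% of 10 windows of surface and junction genes held it, 37.5% of 16 windows of receptors and ligands and 33.3% of 15 windows of transcription factors. The only window of Kdr held no match. Other lists reached like or higher shares, with 77.8% of 9 windows of leukocyte and platelet genes, 50.0% of 6 windows of endoderm genes and 40.0% of 20 windows of pluripotency genes. A match is only a match of letters in this window. The windows of Robo4, Emcn and Eng (endoglin, a TGF-beta co-receptor with intensities of 4107, 4035 and 4346) are shown as examples with the motif in capitals, since they are bright surface genes that hold it. They read as follows, 5′ to 3′.
Robo4, chr9:37401722-37401971, plus strand: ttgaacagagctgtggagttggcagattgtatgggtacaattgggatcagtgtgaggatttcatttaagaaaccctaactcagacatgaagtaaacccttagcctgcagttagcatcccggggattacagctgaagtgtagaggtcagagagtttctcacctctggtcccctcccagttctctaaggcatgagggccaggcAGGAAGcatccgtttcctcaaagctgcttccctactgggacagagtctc
Emcn, chr3:137340828-137341077, plus strand: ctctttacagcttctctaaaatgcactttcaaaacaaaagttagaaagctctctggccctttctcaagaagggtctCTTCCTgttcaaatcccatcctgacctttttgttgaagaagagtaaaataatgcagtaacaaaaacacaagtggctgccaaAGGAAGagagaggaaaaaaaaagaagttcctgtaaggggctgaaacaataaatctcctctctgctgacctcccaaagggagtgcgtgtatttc
Eng, chr2:32646345-32646594, plus strand: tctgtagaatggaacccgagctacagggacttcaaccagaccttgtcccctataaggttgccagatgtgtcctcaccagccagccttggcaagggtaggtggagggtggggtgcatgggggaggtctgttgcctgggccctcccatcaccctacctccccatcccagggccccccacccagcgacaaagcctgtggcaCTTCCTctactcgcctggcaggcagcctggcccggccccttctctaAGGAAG

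Genes of blood cells were detected in about the share of all genes, with Laptm5, globin genes and Pf4 among the brighter ones. Of 10 erythroid genes 6 were detected on all 3 arrays (60%), beside 50.3% of all genes. Hba-a1, an alpha-globin, had intensities of 3733, 3788 and 1627, Hbb-y, an embryonic beta-type globin of primitive red cells, had 2759.9, 2603 and 1149, and Hbb-bh1, another embryonic beta-type globin, had 1349, 1309.5 and 1392. Hba-a1 and Hbb-y were 2.04-fold and 2.01-fold lower on normoxia 3 after normalization, while Hbb-bh1 and the embryonic alpha-type Hba-x (883, 808 and 792) were not. Globin probes can read related globins, so the members of that family may not be separate. Alas2, the haem synthesis enzyme of red cells, was dim at 74.7, 88.3 and 40.2. The red cell regulators were at the limit. Gata1 was detected on 2 arrays, Klf1 on 1 and Epor, the erythropoietin receptor, on 2, while Epb42, a membrane skeleton protein of red cells, was detected on none.

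Of 16 leukocyte and platelet genes, 8 were detected on all 3 arrays (50%, beside 50.3% of all genes), 1 on some and 7 on none. Of the 8, 3 belong to megakaryocytes and platelets. Pf4, the chemokine platelet factor 4, had 2316, 2198 and 403, Itga2b, the CD41 integrin of platelets and first blood progenitors, had 477, 613 and 157, and Gp9, a subunit of the von Willebrand receptor, had 170.3, 131 and 33.7. All were lower on normoxia 3, by 4.67-fold, 2.66-fold and 2.74-fold. Laptm5, a lysosomal membrane protein best known from blood cells, had 4089, 4032 and 3325 and was even across arrays after normalization, where it differed by 0.07 log2 units. The other 4 were dimmer genes of white cells. Coro1a, an actin regulator of leukocytes, had 79.2, 107 and 33.7 by its brightest probe, and Vav1, a signalling protein of blood cells, had 48.1, 38.3 and 24.96. Ikzf1, the lymphoid factor Ikaros, had 36.2, 33.3 and 24.2, and Cd14, a co-receptor for bacterial lipopolysaccharide, had 24.9, 39.2 and 17.1. All 4 were lowest on normoxia 3, and Cd14 was close to the limit of detection. Ptprc, which encodes the pan-leukocyte CD45, had no detected probe of its 2, and neither had Spi1 (PU.1), Itgam (CD11b), Tyrobp, Fcer1g, Mpo (myeloperoxidase) or Cd48. Lyz2, the lysozyme of macrophages, was detected on normoxia 1 and 2 with 34.6 and 46.9, but not on normoxia 3. Of 8 genes of blood progenitors, Runx1, which drives the step from endothelium to blood, had 139, 132 and 73.9, Meis1 had 417, 429 and 336, and Cbfa2t3 and Mecom were detected as well. Gfi1, Gfi1b and Hoxa9 were detected on 1 or 2 arrays and Myb, which definitive blood stem cells need, on none. In bulk RNA fewer cells of a type and less RNA per cell cannot be told apart, here or in any result below.

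Of 16 smooth muscle and pericyte genes, 9 were detected on all 3 arrays (56.2%, beside 50.3% of all genes), and the actin among them was very bright. Acta2, smooth muscle alpha-actin, had 70209, 68178 and 52001 by its brightest probe and 11093, 10454 and 5937 by the dimmest of its 4, and all 4 probes were lower on normoxia 3 after normalization (by 0.20, 0.84, 0.39 and 0.68 log2 units). Smtn, the contractile protein smoothelin, had 1130.0, 1227 and 739 and Tagln, transgelin, had 1093, 969 and 565. Both were also lowest on normoxia 3. Pdgfrb, the PDGF receptor of pericytes, had 115, 85.6 and 21.8 and was 2.52-fold lower on normoxia 3, and Des, desmin, had 222, 224 and 108. Mylk, the myosin light chain kinase, had 324, 368 and 307 and was even across arrays, and Notch3, the Notch receptor of mural cells, had 205, 225 and 132. Lmod1, a leiomodin of smooth muscle, had 64.9, 47.2 and 34.1, and Myocd, the coactivator myocardin, had 36.6, 43.9 and 34.6 by 1 of its 3 probes. Myh11 (smooth muscle myosin) and Cnn1 (calponin) were detected on none of the arrays, nor were the pericyte genes Rgs5 and Kcnj8 or the mesothelial and mural factor Tbx18. Cspg4 (NG2) and Abcc9 were detected on 1 array each. Of 10 fibroblast and mesenchyme genes, 8 were detected on all 3 arrays (80%, beside 50.3% of all genes). They were led by Col1a1, a chain of type I collagen, with 1521, 1259.8 and 764, and Dcn, the proteoglycan decorin, with 273, 282 and 222. Thy1 was not detected and Postn was detected on 1 array.

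**Figure D2:**
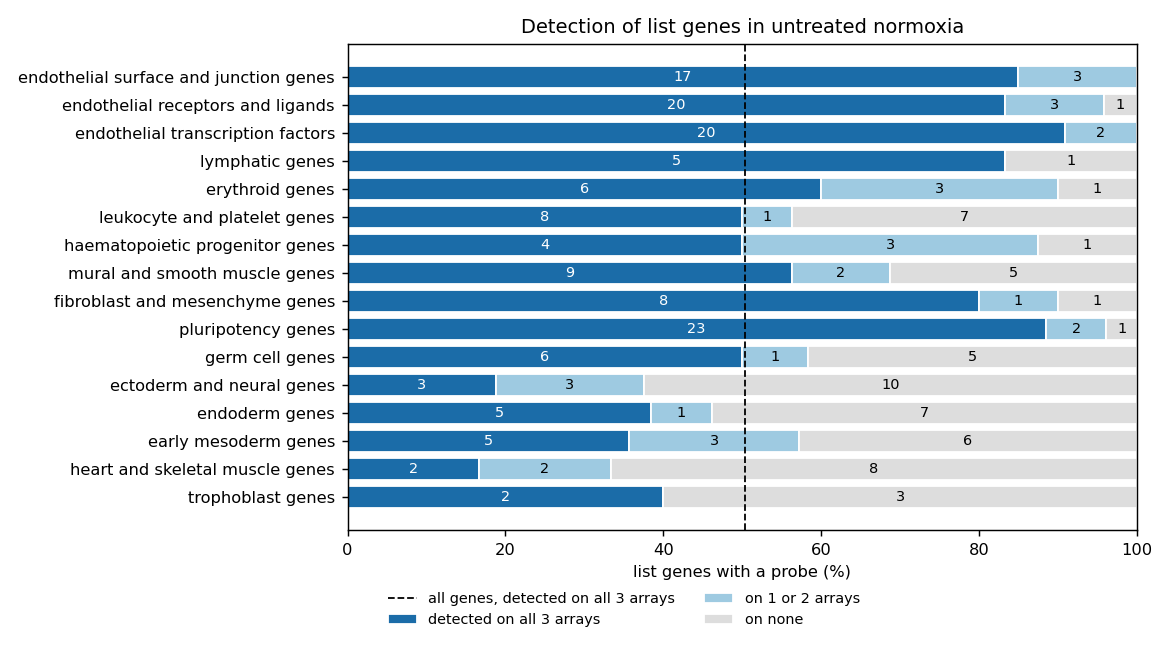
Share of the genes with a probe in each of 16 lists (x axis, percent) that was detected on all 3 untreated normoxia arrays, on 1 or 2, or on none, with numbers of genes in the bars and the share of all genes detected on all 3 arrays (50.3%) as a dashed line. The 3 endothelial lists, the lymphatic list and the pluripotency list lie furthest right of the dashed line, followed by the fibroblast and mesenchyme list (80%). The heart and skeletal muscle and the ectoderm and neural lists lie furthest left.

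Genes of pluripotent stem cells were detected as widely as endothelial ones, with 23 of 26 on all 3 arrays. Dppa5a, an RNA-binding protein of stem and germ cells, had intensities of 20099, 18868 and 7228. Dnmt3l, the cofactor of de novo DNA methylation, had 2572, 2538 and 621, and Dppa4 had 1574, 1652 and 621. Each of these 3 genes was more than 2-fold lower on normoxia 3, with normoxia 1 and 2 alike. The core regulators followed the same pattern. Pou5f1, encoding Oct4, had 1117, 1028 and 261, and Nanog had 1039, 1111 and 511. Sox2, their partner, had 204, 212 and 65.8 and Zfp42, the stem cell marker Rex1, had 437, 473 and 136. After normalization Pou5f1 was 3.32-fold lower on normoxia 3, Nanog 1.79-fold, Sox2 2.23-fold and Zfp42 2.53-fold. Sall4 (1999.8, 1841 and 1022), Klf5 (965, 1035 and 548) and Gdf3 (702, 724 and 252) were lower there too. Klf4 and Tbx3, factors of naive stem cells that differentiated tissues also use, went the other way: Klf4 had 134, 134 and 259 and Tbx3 had 144, 129.9 and 349. The genes not detected on all arrays were Fgf4 and Eras, each on 2 arrays, and Nr0b1, on none. Sox2, Zfp42, Klf4 and Tbx3 were named after their values were seen.

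An octamer motif, ATGCAAA, which is the core of the sequence that Oct4 and related POU factors bind, was searched in the same promoter windows on both strands (reverse match TTTGCAT). Of 23 pluripotency genes detected, 14 have a window and 3 of them held it. By window this was 20.0% of 20, beside 4.12% of all windows, and 0 of 41 endothelial windows held it. Nanog has 2 overlapping windows that hold the same match, so 1 site counts there as 2 windows. The fibroblast and lymphatic lists had the same share in 5 windows each, and the mural and endoderm lists had 16.7% of 6 windows each, which is 1 gene in each of these 4 lists. The blood progenitor list had 14.3% of 7 windows and the leukocyte and platelet list 11.1% of 9, again with 1 gene each. The first window of Nanog and the window of Zfp42 are shown with the match in capitals. Both genes were among the 21 of 23 detected pluripotency genes that were lower on normoxia 3, and a link to the motif was not tested.
Nanog, chr6:122707239-122707488, plus strand: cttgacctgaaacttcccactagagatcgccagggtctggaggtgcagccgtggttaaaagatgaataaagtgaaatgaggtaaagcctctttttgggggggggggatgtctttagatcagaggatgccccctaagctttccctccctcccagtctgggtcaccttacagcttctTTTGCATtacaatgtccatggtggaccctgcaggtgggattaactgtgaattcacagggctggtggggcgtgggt
Zfp42, chr8:43307010-43307259, minus strand: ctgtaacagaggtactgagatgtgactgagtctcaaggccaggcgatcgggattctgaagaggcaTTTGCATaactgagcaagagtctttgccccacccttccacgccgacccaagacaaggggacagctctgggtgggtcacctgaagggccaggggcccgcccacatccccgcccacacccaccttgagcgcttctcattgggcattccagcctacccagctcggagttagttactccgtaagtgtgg

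Of 12 germ cell genes, 6 were detected on all 3 arrays (50%, beside 50.3% of all genes). Ifitm3, also called fragilis, had 2936, 2921 and 1388, Tfap2c had 589.5, 577 and 293 and Dppa3 (Stella) had 239, 235 and 222. Dppa3 was even across the arrays, while Ifitm3 and Tfap2c were lower on normoxia 3. Dnd1, which protects germ cell messages, had 191, 169 and 98.6, Dazl, an RNA-binding protein of the germ line, had 43.4, 39.8 and 23.5, and Ddx4, the helicase Vasa, had 26.9, 34.95 and 22.7 by 1 of its 3 probes. Prdm1 was detected on 1 array. Prdm14, Nanos3, Stk31, Sycp3 and Mael, which act in primordial germ cells or in meiosis, were not detected.

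Genes of ectoderm, endoderm and early mesoderm were detected in smaller shares than all genes. The shares on all 3 arrays were 18.75%, 38.5% and 35.7% of those with a probe, beside 50.3% of all genes. The endoderm and early mesoderm lists are small and their counts moved with the detection setting, so these shares rest on few genes. Of 16 ectoderm and neural genes, 3 were detected on all arrays: Nes, the filament protein nestin that endothelium also makes (2189.6, 2039 and 2277), Krt14, a keratin (558, 521 and 441), and Otx2 (149, 179 and 27.2), which is used in early epiblast as well as in forebrain. Otx2 was 3.45-fold lower on normoxia 3. Without normoxia 3 the count was 5, as Fgf5 (an epiblast growth factor) and Ncam1 were detected on both normoxia 1 and normoxia 2. Sox1, Sox3, Pax6, Tubb3, Neurog1, Neurog2, Six3, Zic1, Trp63 and Krt5 were detected on none. Of 13 endoderm genes, 5 were detected, among them Gata6 (346, 293 and 302), Apoe (192, 189.7 and 71.1), the dim Cdx2 (47.0, 31.9 and 34.5) and Hnf4a (21.4, 24.4 and 28.8), and Sox17 again, while Foxa1, Foxa2, Afp, Alb, Ttr, Apoa1 and Cer1 were not. Of 14 genes of early mesoderm, 5 were detected, led by Snai1 (161, 181 and 127), Foxf1 (115, 105 and 38.1) and Hand1 (85.8, 101 and 54.4). The other 2 were Eomes (35.03, 45.1 and 22.8), a factor of the primitive streak, and Hand2 (22.3, 33.6 and 51.2), and both were dim. Mixl1, Gsc, Mesp1, Mesp2, Tbx6 and Lhx1, which also act in the primitive streak or the mesoderm leaving it, were detected on none of the arrays.

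Of 12 heart and skeletal muscle genes, Nkx2-5 (68.5, 55.3 and 76.6) and the cardiac actin gene Actc1 (262, 277 and 24.4) were detected on all arrays. That is 16.7%, beside 50.3% of all genes. Actc1 was just above the limit on normoxia 3. The muscle myosins Myh6, Myh7, Myl2 and Myl7 and the factors Tbx5, Myod1 and Myf5 were detected on none, nor was Ryr2. Of 5 trophoblast genes, Plac1 (561, 529.6 and 388) and Krt7 (53.1, 62.6 and 24.1) were detected (40%), and Elf5, Tpbpa and Ascl2 were not.

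The spread among the 3 arrays fell unevenly on the lists. Over all 8351 detected genes, 165 (1.98%) were more than 2-fold lower on normoxia 3 than the mean of normoxia 1 and 2, and 77 (0.922%) more than 2-fold higher, while 48.7% were lower by any amount. The median difference was 0.01 on the log2 scale. Of the 23 detected pluripotency genes, 13 were more than 2-fold lower and 21 lower by any amount, with a median of -1.16, and 2 (Klf4 and Tbx3) were more than 2-fold higher. All 8 detected leukocyte and platelet genes were lower, 3 of them more than 2-fold, with a median of -0.55. The medians were -0.36 for the 6 erythroid and also for the 9 mural genes. Endothelial lists leaned the other way, with 12 of 17 surface and junction genes higher on normoxia 3 (median 0.18), 12 of 20 receptors and ligands (0.26) and 16 of 20 transcription factors (0.37). These are descriptions of 1 array against a pair, with no test.

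The same split was partly seen in the other groups. For the 23 pluripotency genes the median of replicate 3 minus replicates 1 and 2 was -1.16 in untreated normoxia, -2.03 in normoxia with the inhibitor, -1.42 in hypoxia with the inhibitor and near 0 in hypoxia, where 12 of the 23 were lower. For the 17 endothelial surface and junction genes it was 0.18 in untreated normoxia, 0.39 in normoxia with the inhibitor, 0.20 in hypoxia and -0.36 in hypoxia with the inhibitor. These are medians over genes, with no test between the groups.

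The genes that varied most among the 3 arrays were Pdlim3, Slc26a10, Actc1, Ly6h, Trh, Acta1, Lyz1, Cldn6, Slc35f1 and Etv2, and in each of them it was normoxia 3 that differed. Pdlim3, a PDZ and LIM protein of muscle, was highest on normoxia 3 with 366, 413 and 2590.3. Acta1, skeletal muscle actin, was lowest there with 964, 1064 and 146, as were Cldn6, a claudin of early embryonic epithelium (741, 735 and 113), and Ly6h (725, 829 and 101). Slc26a10 and Slc35f1 were higher on normoxia 3, as Pdlim3 was, and Trh and Lyz1 were lower.

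**Figure D3:**
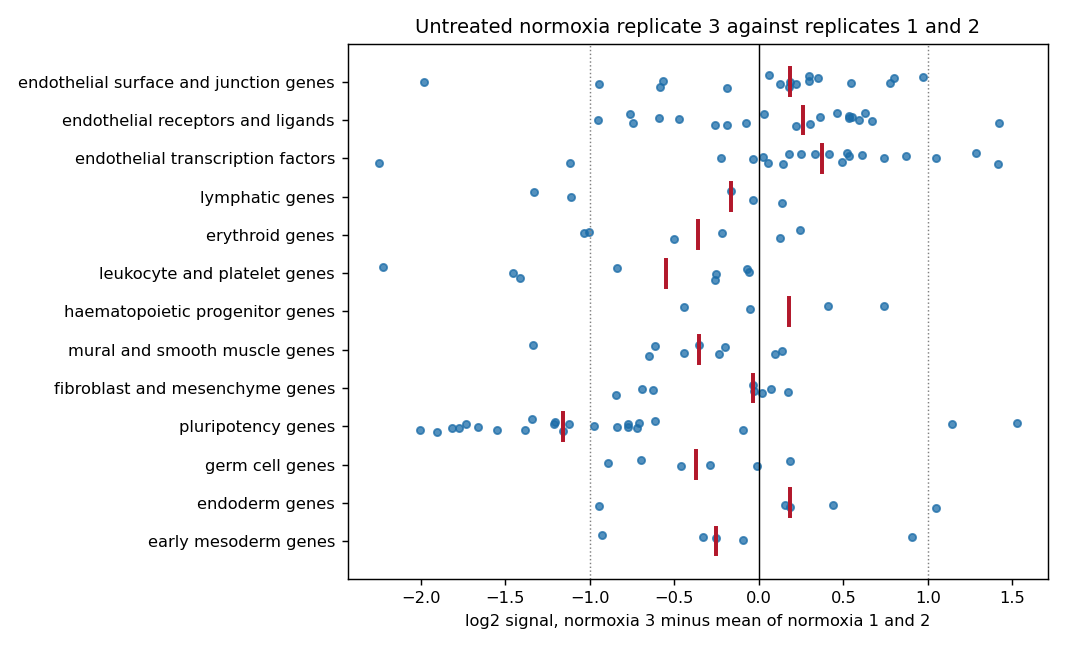
Normalized log2 signal on normoxia 3 minus the mean of normoxia 1 and 2 (x axis) for the genes of each list detected on all 3 arrays, 1 point per gene, with the median of the list as a red bar and 2-fold differences as dotted lines. Pluripotency genes lie mostly left of 0 (median -1.16), and the 3 endothelial lists mostly right of it (medians 0.18, 0.26 and 0.37); lists with fewer than 4 detected genes are not shown.

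The untreated normoxia group was then compared with the rest of the series, as its mean minus the mean of the 3 other group means in a limma fit over 14599 probes detected on at least 3 of the 12 arrays. This asks what sets the untreated cells at 21% oxygen apart from cells given low oxygen, the inhibitor or both. At a Benjamini-Hochberg adjusted p under 0.05, 24 probes passed (0.164%), 8 higher in untreated normoxia (0.0548%) and 16 lower (0.11%), for 7 and 14 genes. The number of calls moved with the arrays used. It was 648 (4.44%) when replicate 3 of every group was left out, all 24 among them, 1 without normoxia 1, 3 without normoxia 2, 10 without normoxia 3, 8, 8 and 27 without replicate 1, 2 or 3 of normoxia with the inhibitor, 5, 4 and 33 without those of hypoxia, and 10, 10 and 88 without those of hypoxia with the inhibitor. With replicates 1 and 2 of each group averaged into 1 sample, because they lie so close, limma called 0 probes, with 540 at an unadjusted p under 0.05 against 1307 in the fit over 12 arrays. Leaving out replicate 3 throughout and averaging replicates 1 and 2 were chosen after seeing the data. Whether replicates 1 and 2 came from separate cultures was not tested; if they did not, the fit without replicate 3 has in effect 1 sample per group and its p-values do not stand for the groups. The p-values measure only the spread between these samples.

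The lower genes in untreated normoxia included an oxygen sensor and enzymes of sugar metabolism. Egln3, a prolyl hydroxylase that marks HIF-alpha for destruction and is itself induced by HIF, had normalized log2 signals of 9.68, 9.58 and 9.67 on normoxia 1, 2 and 3, against a lowest, median and highest value of 9.54, 11.76 and 11.88 on the 9 other arrays. The difference was -1.45 ± 0.10 (SE, limma, adjusted p = 0.00013), and Egln3 was the only called probe that passed in each of the 12 fits that left out 1 array. Its values in untreated normoxia overlapped those of normoxia with the inhibitor and lay below all 6 hypoxia arrays. Tpi1, triosephosphate isomerase of glycolysis, had 13.35, 13.32 and 13.33 in untreated normoxia against 13.27, 14.83 and 15.01 on the other arrays by its brighter probe, a difference of -0.99 ± 0.13 (limma, adjusted p = 0.0182). Pgm1, phosphoglucomutase, which links glucose and glycogen, had 9.41, 9.38 and 9.26 in untreated normoxia against 9.44, 10.50 and 10.77 on the others, a difference of -0.84 ± 0.12 (limma, adjusted p = 0.023). Pgm1 lay below all 9 other arrays, though by little against normoxia with the inhibitor.

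Trf, transferrin, had 6.14, 6.83 and 6.10 in untreated normoxia against 5.94, 8.60 and 8.82 on the 9 others, a difference of -1.49 ± 0.24 (limma, adjusted p = 0.0379). Its signals in untreated normoxia overlapped those of normoxia with the inhibitor. The other lower genes were Adgrg3, an adhesion G protein-coupled receptor, Cavin3 of caveolae, Sh3tc2, P4ha2, a collagen prolyl hydroxylase, and Nampt of NAD synthesis, together with 5 genes near or below the detection limit in untreated normoxia. Of these 5, Dusp26 and Pkig were detected on 0 of 3 untreated normoxia arrays, Gna14 on 1, and Pygl (liver glycogen phosphorylase) and As3mt on 2, while all 5 were detected on the 6 hypoxia arrays.

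Of the genes higher in untreated normoxia, Mreg, melanoregulin of organelle transport, had 9.18, 9.22 and 9.10, against 7.22, 7.95 and 9.19 on the 9 other arrays, a difference of 1.04 ± 0.14 (limma, adjusted p = 0.0182). Ak1, the adenylate kinase that balances ATP and ADP, had 9.53, 9.39 and 9.29 in untreated normoxia against 7.59, 8.11 and 9.55, a difference of 0.94 ± 0.13 (adjusted p = 0.023). Gucy1b1, the haem-binding subunit of the nitric oxide receptor guanylate cyclase, had 6.54, 6.47 and 7.06 in untreated normoxia against 5.22, 5.47 and 6.60, a difference of 0.94 ± 0.13 (adjusted p = 0.023). For Mreg and Ak1 the untreated normoxia arrays overlapped those of normoxia with the inhibitor and lay above all 6 hypoxia arrays. The same held for Dcxr, dicarbonyl/L-xylulose reductase, and Tmc7, while Ephx1, the microsomal epoxide hydrolase, lay above the hypoxia arrays and just below all 3 arrays of normoxia with the inhibitor. Nr2f1 (COUP-TFI), a nuclear receptor close to the venous factor Nr2f2, was detected on all 3 untreated normoxia arrays and on 0 of the other 9. Its deposited intensities were 34.2, 26.7 and 31.5, just above the limit of detection. The difference was 0.67 on the log2 scale (limma, adjusted p = 0.0398, and 0.0402 in the limma fit with no filter). In the main fit the probe passed the filter only through the untreated normoxia arrays, where it is high. Its call is therefore a description. As Nr2f1 was undetected on those 9 arrays, it is given as at least 1.29-fold higher, a bound that was not itself tested. The call was lost with an offset of 50 and without any 1 of the untreated normoxia arrays.

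All 24 called probes separated the 3 untreated normoxia arrays from the 6 hypoxia arrays without overlap, and 4 separated them from the 3 arrays of normoxia with the inhibitor as well. For 3 of these 4, the probes of Nr2f1, Nampt and Pgm1, the untreated normoxia arrays lay on the same side of all 9 others. Of all 14599 probes, 9.24% separated the untreated normoxia arrays from the 6 hypoxia arrays, 6.06% from the 3 arrays of normoxia with the inhibitor and 0.959% from all 9. The 24 were called on this same difference, so their separation is a description. Of the 24, 19 were detected on all 3 untreated normoxia arrays. By detection alone, 3 probes (0.0117% of all) were detected on all 3 untreated normoxia arrays and none of the other 9, those of Nr2f1, Igsf1 and Rnase4, and 1, of Sag, the other way round. All 4 were dim.

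**Figure D4:**
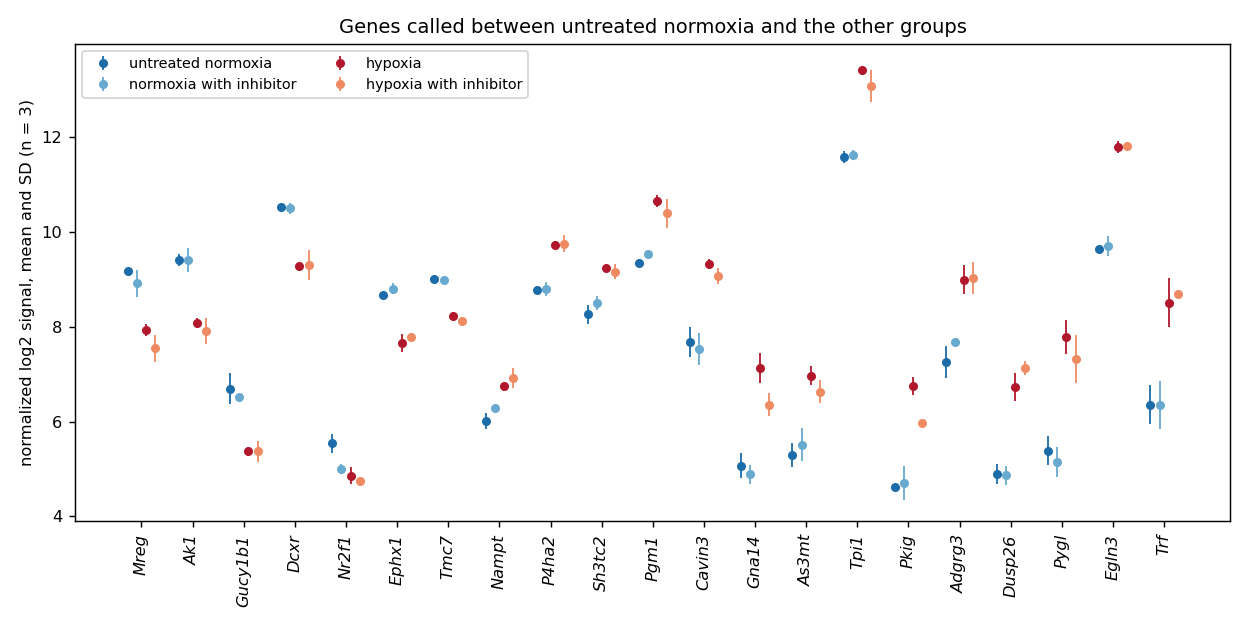
Normalized log2 signal (mean and SD, n = 3 arrays per group) of the 21 genes that passed between untreated normoxia and the mean of the other groups. Where a gene had several called probes, the one with the largest difference is shown, which for Tpi1 is not the brighter probe given in the text. Untreated normoxia is at the left of each gene. Normoxia with the inhibitor lies near untreated normoxia for most genes, such as Egln3 and Ak1, and both hypoxia groups lie apart.

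No gene of the lists passed this comparison. Of the 229 list genes with a probe, 171 passed the filter on detection, limma called 0 of them at an adjusted p under 0.05, and 30 (17.5%) had an unadjusted p under 0.05, beside 8.95% of all probes tested. The smallest adjusted p was 0.0730, for the stem cell factor Nr5a2. The median difference, untreated normoxia minus the rest, was 0.71 over the 24 pluripotency genes that passed the filter, 20 of them positive, and 0.55 over 9 erythroid genes, beside 0.0043 over all probes. Against same-numbered arrays of the other groups the pluripotency median was 0.73, 0.79 and 0.55 for normoxia 1, 2 and 3, with 20, 21 and 18 of the 24 positive. The filter can keep a gene through the group where it is high, so these medians are descriptions. For the surface and junction, receptor and transcription factor lists of endothelium the medians were 0.05, 0.0017 and 0.04.

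Without replicate 3 of any group, in the fit whose p-values rest on the closely similar replicates 1 and 2, 18 of the 24 pluripotency genes passed as higher in untreated normoxia and 1 (Tbx3) as lower, where 2.14% and 2.3% of all probes passed in those directions. Nanog differed by 1.04 (SE 0.08, adjusted p = 0.00157) in that limma fit, Dppa5a by 1.15 (SE 0.09, adjusted p = 0.00156) and Pou5f1 by 0.86 (SE 0.12, adjusted p = 0.00973). All were above the rest in the fit over 12 arrays as well, with adjusted p over 0.05. Of the 20 surface and junction genes of endothelium, 4 passed as higher (Jam2, Emcn, Gja4 and Gja5) and 1 as lower (Sele). Gja4 differed by 1.50 (SE 0.11, adjusted p = 0.000971). Of 23 receptors and ligands 0 passed as higher and 4 as lower, namely Angpt2 (the Tie2 antagonist), Ramp3, Adm (adrenomedullin) and Ednrb. In the remaining lists, Hey1 (a Notch target), the erythroid genes Hba-a1 and Alas2, Lyve1, Notch3, Dppa3, Ifitm3 and Otx2 passed as higher. Etv2, Laptm5, Reln, Des, Mylk, Krt14, Mixl1 and Hand1 passed as lower. The endothelial transcription factor, lymphatic, mural and ectoderm lists thus held genes of both directions. None of these list genes passed in the main fit over 12 arrays. With replicates 1 and 2 averaged 0 of all 14599 probes passed, so that fit cannot single out list genes. Calls of list genes with the replicate number as a block are not given here. The part of replicate 3 in this was not tested further.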

How the data were processed

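RNA of sorted CD31-positive cells was hybridised to 12 bead arrays from Illumina, and the sample titles give 4 groups of 3 arrays. The deposited non-normalized table holds, per the file headers, a linear intensity beside a detection p-value for each probe and array. The deposited intensity had been background-subtracted, as 23.3% of its values are below 0, and the deposited detection p-value changes in steps that match 798 negative controls. The submitters' processing notes name BeadStudio, without saying which step it did. The authors' processed table gives a second intensity for the same probes, floored at 20 and with 45.5% to 48.0% of values at the floor on an array. How it was scaled is not given in the sources, and it served as an alternative.

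Gene symbols came from the platform annotation, which gives 23978 probes 1 symbol, 0 probes several and 1719 none. A gene counted as detected when at least 1 of its probes had a detection p-value under 0.05 on all 3 untreated normoxia arrays. For comparisons between arrays, limma 3.58.1 in R 4.3.3 corrected the background by normexp from the detection p-value with an offset of 16, quantile normalized the 12 arrays and took log2. Probes detected on at least 3 of the 12 arrays were fitted as 4 group means, which leaves 8 residual degrees of freedom. Variances were moderated, tests were two-sided, and p-values were adjusted by Benjamini-Hochberg over all 14599 probes. The fit was tested on simulated data. Precision is limited by the number of arrays and by signal over background; arrays have no read depth. Tables and figures used Python 3.11.15 and matplotlib 3.10.9.

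The members and the gene lists were chosen with earlier results of these data known. The genes named are Pecam1, Cdh5 and Ramp2, the 25 brightest genes with and without ribosomal proteins, up to 8 detected members of each list by signal and any member detected on none or some arrays, the 10 most variable, the 8 largest called differences in each direction, and genes detected only in or only outside untreated normoxia. Others are said to be chosen after their values were seen. Alternatives were stricter and looser detection, other filters, offsets and normalizations, the processed table, the replicate number as a block, and leaving out each array. Taken as deviations from group means, untreated normoxia arrays correlated at 0.066 to 0.642 with the arrays of the same number in other groups. Of these 9 values, 8 were over 0.1, a hint that arrays of the same number share a deviation. The labels do not say that the numbers pair the samples, so the main fit left pairing out. The fit with the replicate number as a block takes it in.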

Additional observations from a re-analysis of the deposited data

How the results depend on the processing

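The number of detected probes stayed between 11047 (detection p-value under 0.01) and 14879 (detected on at least 1 array), and 12399 to 12834 without 1 of the normoxia arrays. The detected list genes numbered 123 to 172 over the same settings. Small lists moved most. At a detection p-value under 0.01, 5 leukocyte and platelet, 5 fibroblast, 3 endoderm, 3 early mesoderm, 1 heart and skeletal muscle and 1 trophoblast gene were detected. With detection on at least 1 array, 7 blood progenitor, 6 ectoderm and neural, 8 early mesoderm and 4 heart and skeletal muscle genes were, and with at least 2 arrays 5 ectoderm and neural genes. Leaving out 1 normoxia array gave 3 to 5 ectoderm and neural genes. In all, 116 of 128 counts for single lists stayed within 1.5 times the reported one. The difference in detected probes per array turned to -5.22 at a detection p-value under 0.01 (exact permutation p = 0.973), and ranged from -64 (without normoxia 2) to 195 without 1 array, so it had no stable direction. Of the 25 brightest genes outside ribosomal proteins, 22 to 25 stayed without 1 normoxia array.

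The comparison with the other groups called 24 probes, 23 with no filter, 19 with detection on all 12 arrays, 30 with an offset of 50, 24 with median scaling, 24 with cyclic loess and 29 in the authors' processed table. Leaving out 1 array gave 1 to 88 calls. It called 648 without replicate 3 of every group and 0 with replicates 1 and 2 averaged, both chosen after seeing the data. The fit with the replicate block called 81 probes (30 higher and 51 lower in untreated normoxia), including all 24. An array correlated best with its own number in another group in 30 of 36 cases. These cases are not independent, and they are a hint from the data and not from the design. Over the 498 alternative values of the called probes none changed sign, and 199 lost the call. The replicate block and the changed filters leave the difference of a probe as it was, and the other settings reuse many of the same arrays. The probes were also chosen for their difference in these data, so the constant sign was largely set in advance. The causes were not tested.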
